A study of Mus musculus with 60 samples.

Results

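Lithium was compared with vehicle in mice heterozygous for Trip12, labelled HT, whose prefrontal cortex was sequenced. The columns of the deposited table were chosen by the genotype, drug and sex in their names: 10 HT lithium libraries and 10 HT vehicle libraries, 20 of the 60 in the series. Trip12 encodes an E3 ubiquitin ligase, and loss of 1 copy of the human gene is a cause of intellectual disability and autism. All mice were C57BL/6J, and each drug reached the pups through the milk of their dam for 3 weeks, from postnatal day 3 to day 24, before the cortex was taken on day 25. The groups used here are HT lithium females, HT lithium males, HT vehicle females and HT vehicle males, with 5 libraries each. The same groups of wild-type mice (WT) and the HT mice given fluoxetine, another psychiatric drug, serve for comparison. The labels do not say what the Trip12 allele is, and they name neither the animals nor the litters. The p-values therefore measure the spread between these samples, in which littermates that shared a treated dam cannot be told apart from independent animals.

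Lithium is a mood stabiliser. It inhibits glycogen synthase kinase 3 (GSK3), an enzyme that marks beta-catenin for destruction in the Wnt pathway, and it inhibits the phosphatases that recycle inositol from the messengers made by receptor signalling. GSK3 is encoded by Gsk3a and Gsk3b, and the inositol monophosphatases by Impa1 and Impa2. Work in rodent brain and in cultured neurons has also linked lithium to brain-derived neurotrophic factor (BDNF) and to the chaperones of the endoplasmic reticulum (ER).

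Values are normalized counts, which are reads per gene divided by 1 size factor per library. Fold changes are lithium over vehicle on the log2(normalized count + 1) scale, averaged over the sexes and given ± SE. A gene was called at a limma p-value, adjusted by Benjamini-Hochberg over 17231 genes, under 0.05. The words higher, lower, rose and fell are used of called genes.

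The 10 HT lithium libraries held 26.6 to 35.2 M reads (M, 10 to the power of 6), against 26.6 to 31.0 M in the 10 HT vehicle libraries. In females every lithium library was deeper than every vehicle library (medians 34.4 M and 30.1 M; exact two-sided permutation test p = 0.0079, Benjamini-Hochberg adjusted over 9 library measures to 0.036). In males the depths overlapped (medians 30.0 M and 28.1 M; adjusted exact p = 0.46). The libraries also differed in genes of the neighbouring striatum. A striatal score, the mean log2 deviation of 21 striatal medium spiny neuron genes from their mean over all 60 libraries, exceeded 0.5 in 0 of 10 HT lithium libraries and in 5 of 10 HT vehicle libraries, which were female 1 and males 2 to 5. The score was above 0.5 in 0 of 20 WT libraries and in 3 of 10 HT fluoxetine libraries. An olfactory bulb score was above 0.5 in 4 of 10 HT lithium and 4 of 10 HT vehicle libraries. For many groups of genes, values are therefore also given with the striatal and olfactory scores in the model, without those 5 vehicle libraries, or both. Leaving them out, an alternative chosen after the data were seen, sets all 10 lithium libraries against 4 vehicle females and 1 vehicle male.

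**Figure D1:**
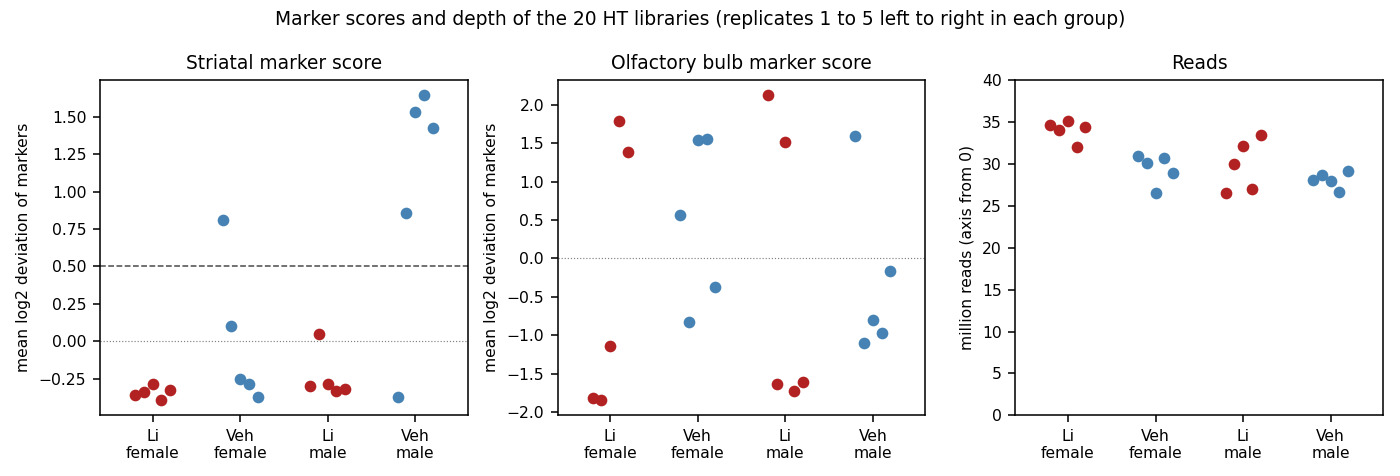
Striatal marker score, olfactory bulb marker score (both mean log2 deviation) and reads (M) of the 20 HT libraries, 1 point per library, with the 4 groups on the x axis. The 5 points above the dashed line at 0.5 in the striatal panel are all vehicle libraries, and the 5 lithium female libraries all hold more reads than the 5 vehicle female libraries.

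Lithium changed 1566 genes in HT cortex, 9.09% of those tested, of which 807 rose (4.68%) and 759 fell (4.4%). The counts of list members given below for this comparison are to be read beside these shares. Most of the changes were small. The median absolute fold change of the called genes was 0.28 on the log2 scale, 247 of them exceeded 0.5 and 32 exceeded 1, beside a median SE of 0.08 over all genes. With the striatal and olfactory scores in the model 160 genes were called, of which 99 rose and 61 fell. Leaving out the 5 vehicle libraries high in striatal genes reduced the count to 13, all higher with lithium. Library depth as a covariate left 504 calls, 245 higher and 259 lower.

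Trip12 itself (chr1:84721189-84840516 on GRCm38, minus strand) had 5489, 6003 and 6332 normalized counts (lowest, median and highest) in HT lithium libraries, against 5720.5, 6137 and 6953 in HT vehicle libraries. These ranges overlapped and the gene was not called (−0.04 ± 0.04, limma adjusted p = 0.52). The labels do not place the lesion of the allele, so this level is no check of the genotype.

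Among called genes that averaged 50 or more normalized counts, the largest rise was that of Plekhg4, which encodes a guanine nucleotide exchange factor (chr8:105373274-105382862, plus strand). Lithium libraries held 106, 141 and 189 normalized counts of it (lowest, median and highest), against 42.8, 67.0 and 90.5 in vehicle libraries. Every lithium library was above every vehicle library. Its mean was 2.13-fold higher (1.09 ± 0.14 on the log2 scale, limma adjusted p = 0.00055). It stayed called without the 5 vehicle libraries (1.16, adjusted p = 0.014) and with the marker scores in the model (1.20, adjusted p = 0.0063).

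Other large rises were those of Pglyrp1, Dok3, Alkal2, Greb1, Fam167a and Bc1. Pglyrp1, an antibacterial peptidoglycan recognition protein, had 201, 253 and 334 normalized counts with lithium, against 117, 154 and 211 with vehicle. All but 1 of the lithium libraries lay above the vehicle range (0.80 ± 0.10, limma adjusted p = 0.00055). Dok3, an adaptor that restrains signalling in myeloid and B cells, had 215, 336 and 393, against 132, 178 and 234 (0.85 ± 0.12, adjusted p = 0.00066). Alkal2, a ligand of the receptors ALK and LTK, rose by 0.80 ± 0.14, Greb1, an oestrogen-responsive gene, by 0.75 ± 0.22, and Fam167a by 0.72 ± 0.17. Bc1, a short non-coding RNA of dendrites, rose by 0.94 ± 0.22 (adjusted p = 0.011), with 450.3, 907 and 1470 normalized counts with lithium, against 286, 420.3 and 979 with vehicle. Bc1 is made from a repeat-derived gene, so reads may be shared with near-identical copies elsewhere in the genome. Without the vehicle libraries high in striatal genes, Fam167a stood at 0.49 and Greb1 at 0.52. Pglyrp1 then stood at 0.76, Dok3 at 0.80, Alkal2 at 0.81 and Bc1 at 1.40. With the marker scores in the model Fam167a lost its call (0.59, limma adjusted p = 0.11), and the other genes kept theirs. Fam167a (0.70, adjusted p = 0.074) and Bc1 (0.68, adjusted p = 0.16) were not called with depth as a covariate. With each library left out in turn, the highest adjusted p for Greb1 was 0.066.

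**Figure D2:**
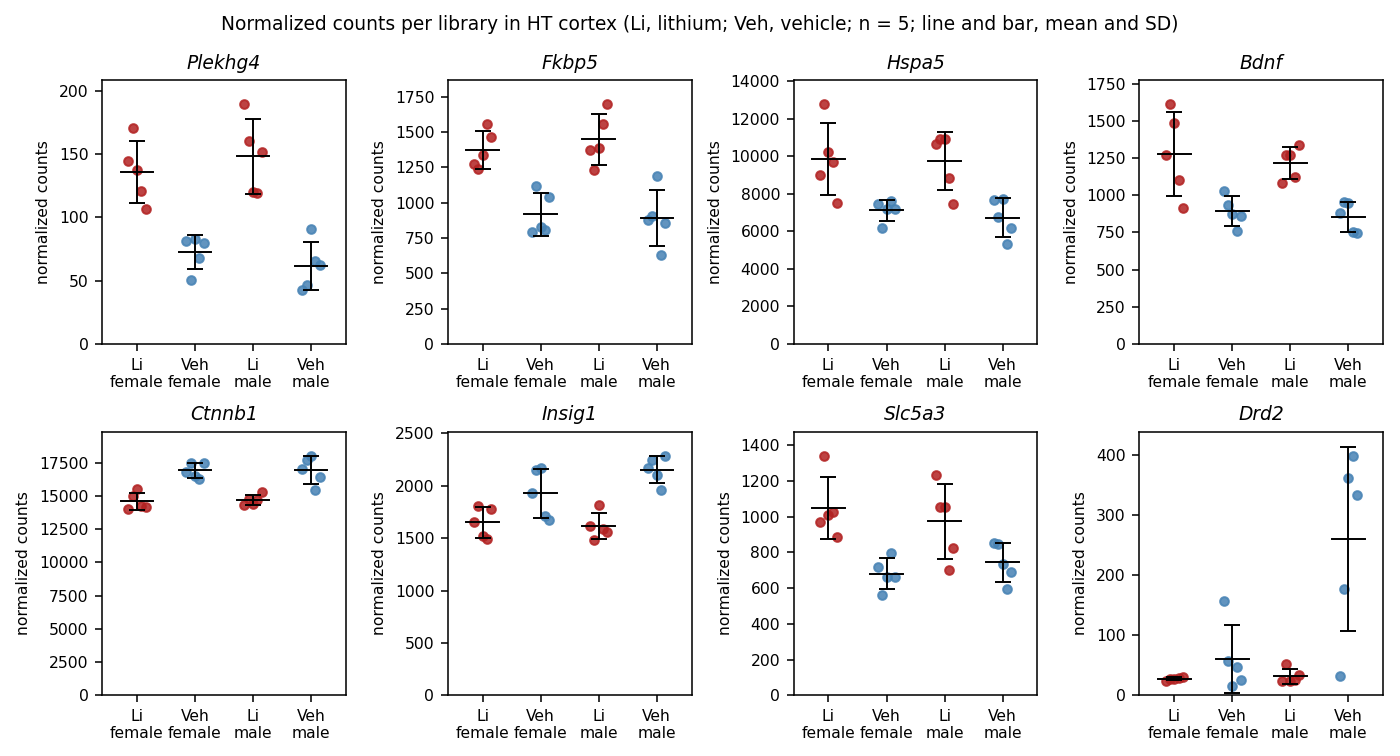
Normalized counts of 8 genes in each HT library (points), with the mean (line) and SD (bar) of the 5 libraries of each group on the x axis, lithium left of vehicle in each sex. Plekhg4 and Fkbp5 show no overlap between 10 lithium and 10 vehicle libraries, whereas Drd2 is high in a subset of the vehicle libraries.

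The enzymes that lithium binds changed little at the RNA level. Of 7 genes for direct enzyme targets, 1 rose and 1 fell. Impa1 had 1763, 2008 and 2359 normalized counts with lithium, against 1673, 1815 and 1977 with vehicle (0.16 ± 0.05, limma adjusted p = 0.047). Impa2, its less abundant paralog, had 113, 139 and 158 with lithium, against 123, 163 and 233 with vehicle (−0.28 ± 0.09, adjusted p = 0.041). The ranges of both genes overlapped between the drugs, and neither call held with depth as a covariate (adjusted p = 0.13 for each). Gsk3a (0.01 ± 0.05, adjusted p = 0.91) and Gsk3b (−0.06 ± 0.06, adjusted p = 0.57) were not called. Nor were Inpp1, Bpnt1 and Impad1, which encode other lithium-sensitive phosphatases of the same family, with fold changes of −0.09, 0.01 and −0.06.

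Of 23 genes of inositol recycling and transport 2 rose and none fell, beside the 4.68% of all genes that rose, and the list median was 0.02, against −0.00139 over all genes tested. The risers were Slc5a3, the sodium-coupled importer of myo-inositol, and Isyna1, the enzyme that makes inositol from glucose 6-phosphate. Slc5a3 had 701, 1019 and 1342 normalized counts with lithium, against 561, 705 and 850.4 with vehicle. Of the lithium libraries 8 lay above all vehicle libraries (0.49 ± 0.10, limma adjusted p = 0.0047). Isyna1 had 721, 891 and 1074, against 508, 750.3 and 892 (0.33 ± 0.09, adjusted p = 0.027). With the marker scores in the model Isyna1 stayed called (0.55, adjusted p = 0.023) and Slc5a3 did not (0.52, adjusted p = 0.057). Neither gene was called with depth as a covariate (adjusted p = 0.063 for Slc5a3 and 0.18 for Isyna1) or without the 5 vehicle libraries, where Slc5a3 stood at 0.51 (adjusted p = 0.12) and Isyna1 at 0.47 (adjusted p = 0.10). In WT cortex neither gene was called, at 0.19 ± 0.08 for Slc5a3 and 0.03 ± 0.08 for Isyna1, and neither differed between genotypes (adjusted p = 0.89 each).

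In the Wnt pathway, the gene for beta-catenin was lower. Ctnnb1 had 14000, 14537 and 15544 normalized counts with lithium, against 15455, 16943 and 18044 with vehicle. Of the vehicle libraries 9 were above all lithium libraries (−0.21 ± 0.03, limma adjusted p = 0.0015). The fall held with the marker scores in the model (−0.25, adjusted p = 0.023) and had the same size, but no call, without the 5 vehicle libraries (−0.22, adjusted p = 0.070). The receptor gene Fzd1 went the other way, with 451, 511 and 581 with lithium, against 313, 385 and 448 with vehicle, and no overlap (0.44 ± 0.08, adjusted p = 0.0020). Of 23 core pathway genes 4 rose, among them Fzd2 (0.36) and the ligand gene Wnt4 (0.28), and Ctnnb1 alone fell. Transcriptional targets of beta-catenin showed little: 1 of 18 rose, the cyclin gene Ccnd1 (0.28 ± 0.07, adjusted p = 0.021), and the list median was 0.02.

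Of 21 measured genes that glucocorticoids induce, 9 rose and none fell, with a list median of 0.21. Fkbp5, a co-chaperone that damps the glucocorticoid receptor, had 1233, 1379.6 and 1696 normalized counts with lithium, against 627, 866 and 1185 with vehicle. Every lithium library was above every vehicle library (0.66 ± 0.09, limma adjusted p = 0.00071). Plin4, a lipid droplet protein, rose most in the list, with 25.8, 49.5 and 88.6 with lithium, against 9.31, 17.6 and 36.4 with vehicle (1.35 ± 0.22, adjusted p = 0.0012). Tsc22d3, which encodes the glucocorticoid-induced leucine zipper, had 1930.2, 2463 and 2851, against 1438, 1750.1 and 2181 (0.41 ± 0.07, adjusted p = 0.0025). Zbtb16, a zinc finger repressor, had 883, 1359.7 and 1713, against 757, 874 and 1224 (0.53 ± 0.10, adjusted p = 0.0026). In these last 3 genes 7 or 8 of the 10 lithium libraries lay above all vehicle libraries. Without the 5 vehicle libraries 1 of the 21 genes was called and the median was 0.08. That gene was Fkbp5 (0.59, adjusted p = 0.025).

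Of the 38 gene lists examined, the one with the largest share of called members held ER chaperones and genes of the unfolded protein response, the programme by which a cell raises its folding capacity when proteins accumulate unfolded in the ER. The lists were chosen with earlier results of these data known, so this rank is no independent support. Of 22 measured genes 16 rose, none fell, and the median was 0.24. Several of them carry in their promoters the ER stress response element, CCAAT, 9 spacer bases and CCACG, to which the factors ATF6, NF-Y and XBP1 can bind. That element, with any base in the spacer, was searched on both strands of 300 bases around each start (250 before and 50 after). It was found in 39 of 32851 RefSeq promoters (0.119%), which belong to 37 of 27025 genes (0.137%). Of 19 list members with a promoter entry 8 held it, and among 14 called members 7 did. Its copies in those 7 called genes, with 10 flanking bases on each side and the element in capitals, read as follows along the strand that spells it (RefSeq, GRCm38.p6):
Hspa5, chr2:34772015-34772053, plus strand: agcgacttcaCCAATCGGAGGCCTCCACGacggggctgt
Pdia6, chr12:17266481-17266519, plus strand: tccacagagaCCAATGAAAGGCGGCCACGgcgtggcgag
Dnajc3, chr14:118937817-118937855, plus strand: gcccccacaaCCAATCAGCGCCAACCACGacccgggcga
Calr, chr8:84847065-84847103, plus strand: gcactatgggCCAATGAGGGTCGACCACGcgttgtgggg
Creld2, chr15:88819510-88819548, minus strand: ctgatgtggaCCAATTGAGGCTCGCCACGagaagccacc
Syvn1, chr19:6046522-6046560, plus strand: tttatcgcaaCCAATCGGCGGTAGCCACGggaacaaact
Hsp90b1, chr10:86705628-86705666, minus strand: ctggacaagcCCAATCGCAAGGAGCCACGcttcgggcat
Hsp90b1, chr10:86705523-86705561, plus strand: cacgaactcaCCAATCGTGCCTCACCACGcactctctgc
A match describes these letters and does not show binding. In Hspa5 the element starts 65 bases before the start that RefSeq annotates, and the promoter entry as a whole, with that element in capitals (chr2:34771840-34772139, plus strand), reads:
Hspa5 promoter: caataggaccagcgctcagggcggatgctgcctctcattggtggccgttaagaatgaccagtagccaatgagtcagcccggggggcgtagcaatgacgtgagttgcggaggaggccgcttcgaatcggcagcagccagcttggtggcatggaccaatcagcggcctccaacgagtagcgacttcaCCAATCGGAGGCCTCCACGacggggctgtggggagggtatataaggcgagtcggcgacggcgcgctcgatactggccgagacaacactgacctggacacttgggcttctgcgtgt

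Hspa5 encodes BiP, the main chaperone of the ER lumen (gene at chr2:34771970-34777547, plus strand, in the GENCODE annotation, whose start lies upstream of the RefSeq start and of the element). It had 7480.1, 9976 and 12776 normalized counts with lithium, against 5314, 7177 and 7725 with vehicle. Of the lithium libraries 8 were above all vehicle libraries (0.49 ± 0.09, limma adjusted p = 0.0025). Sdf2l1, a partner of BiP's co-chaperones, had 327, 431 and 589.6 with lithium, against 214, 291 and 354 with vehicle (0.66 ± 0.11, adjusted p = 0.0012). Manf, a secreted ER stress protein with neurotrophic activity, had 979.7, 1249.8 and 1544, against 855, 996 and 1055 (0.38 ± 0.06, adjusted p = 0.0015). Pdia4, a disulfide isomerase, had 1057, 1415 and 1635, against 809.97, 985 and 1117 (0.46 ± 0.08, adjusted p = 0.0019). For Manf and Pdia4, 9 of 10 lithium libraries lay above the vehicle range. The other genes printed with their elements, which were chosen after their values were seen, rose by 0.34 (Pdia6, a disulfide isomerase), 0.35 (Dnajc3, a BiP co-chaperone), 0.24 (Calr, a lectin chaperone), 0.40 (Creld2), 0.26 (Syvn1, a ubiquitin ligase of ER-associated degradation) and 0.19 (Hsp90b1, the ER form of HSP90).

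Summed over the 22 genes, the ER list held 69035 to 94458 normalized counts with lithium, against 64045 to 72457 with vehicle, and 8 lithium libraries were above all vehicle libraries. The sensors Ern1 and Atf6 were not called (0.07 and 0.09). Without the 5 vehicle libraries the list median was 0.25 and no member was called, and with the marker scores in the model 6 of 22 were called at a median of 0.25. Depth as a covariate left 10 of 22 called at a median of 0.24.

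Targets of Atf4, the transcription factor of the integrated stress response, moved less. Of 28 genes 5 rose and none fell, with a median of 0.10. Atf4 itself had 3118, 3789.6 and 4720.1 normalized counts with lithium, against 2859, 3055 and 3202 with vehicle, and 9 lithium libraries lay above the vehicle range (0.33 ± 0.06, limma adjusted p = 0.0024). Sesn2, a stress-induced inhibitor of mTORC1 signalling, rose by 0.39 ± 0.07, the mitochondrial folate enzyme gene Mthfd2 by 0.39 ± 0.09 and the amino acid transporter gene Slc7a5 by 0.26 ± 0.07. With the marker scores in the model none of these genes was called. Atf4 then stood at 0.32 (adjusted p = 0.058), Sesn2 at 0.34 (adjusted p = 0.083), Mthfd2 at 0.39 (adjusted p = 0.11) and Slc7a5 at 0.185 (adjusted p = 0.26). Without the 5 vehicle libraries they stood at 0.33, 0.29, 0.43 and 0.24. Of 20 cytosolic heat shock genes 3 rose, none fell, and the median was 0.05. Hspb1, a small heat shock protein, had 124, 176 and 251 with lithium, against 54.6, 90.8 and 152 with vehicle (0.94 ± 0.17, adjusted p = 0.0022). The inducible chaperone gene Hspa1b had 351, 499 and 731, against 121, 311 and 395 (0.80 ± 0.17, adjusted p = 0.0064). Hspa1b has a near-identical neighbour, Hspa1a, with which reads may be shared. Dnajb1, a co-chaperone, rose by 0.24 ± 0.05. With the marker scores Hspb1 (1.02, adjusted p = 0.040) and Hspa1b (0.91, adjusted p = 0.047) stayed called, and Dnajb1 (0.18, adjusted p = 0.18) did not. Without the 5 vehicle libraries these genes stood at 0.96, 0.97 and 0.22.

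Of 21 genes that neurons induce late after activity 10 rose and none fell, at a median of 0.24. Of 27 immediate early genes 2 rose, the transcription factor gene Egr3 (0.30 ± 0.09, limma adjusted p = 0.037) and Ier5 (0.27 ± 0.08, adjusted p = 0.047), and the median was 0.16. Neither early gene was called with depth as a covariate, with the marker scores or without the 5 vehicle libraries. Bdnf had 913, 1270.1 and 1613 normalized counts with lithium, against 746, 877 and 1031 with vehicle (0.50 ± 0.09, adjusted p = 0.0015). Vgf, a secreted neuropeptide precursor induced by neurotrophins, had 5677, 6822 and 7765, against 2822, 4996 and 5863 (0.54 ± 0.10, adjusted p = 0.0025). In both genes 9 of 10 lithium libraries were above all vehicle libraries. Inhba, a subunit of activin, had 501, 664 and 903, against 286, 388 and 514 (0.79 ± 0.13, adjusted p = 0.0012). Ptgs2, which encodes the inducible cyclooxygenase COX-2, had 329, 446 and 534, against 246, 323 and 368 (0.48 ± 0.08, adjusted p = 0.0015). Homer1, a scaffold of the postsynaptic density with an activity-induced short form, had 6264, 9012 and 13461, against 5032, 6015 and 8182 (0.52 ± 0.10, adjusted p = 0.0030), and the table does not separate its isoforms. Without the 5 vehicle libraries 1 late gene was called, Vgf (0.76, adjusted p = 0.013), and the list median was 0.17. Among 14 neurotrophins and receptors 3 rose, namely Bdnf, Vgf and the neurotrophin-3 receptor gene Ntrk3 (0.15 ± 0.04).

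Of 28 genes of cholesterol synthesis and sterol supply 8 fell and 1 rose, with a median of −0.13. The riser was the fatty acid desaturase gene Scd1, which is not an enzyme of the sterol pathway. Insig1, the ER protein that holds back the sterol-regulated factor SREBP, had 1484, 1603 and 1817 normalized counts with lithium, against 1674, 2129 and 2288 with vehicle. Of the vehicle libraries 8 were above all lithium libraries (−0.32 ± 0.06, limma adjusted p = 0.0026). Hmgcs1, an early enzyme of the pathway, had 7529, 9004 and 9968, against 8809, 11528 and 13325 (−0.31 ± 0.07, adjusted p = 0.010), and the mevalonate kinase gene Mvk fell by 0.33. With the marker scores, or without the 5 vehicle libraries, no gene of the list was called, and the medians were −0.10 and −0.07. In WT cortex 13 of the 28 fell and none rose, beside the 2.03% of all genes that fell there.

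Of 74 nuclear genes of the mitochondrial respiratory chain 15 rose and none fell, at a median of 0.10. Cox7a2, a subunit of cytochrome c oxidase, had 2485, 2798 and 3193 normalized counts with lithium, against 2125, 2395 and 2529 with vehicle (0.26 ± 0.05, limma adjusted p = 0.0022). Ndufb2, a subunit of complex I, had 910.2, 1034 and 1140.05, against 682, 819 and 976 (0.34 ± 0.06, adjusted p = 0.0029). In both, 9 lithium libraries lay above the vehicle range. Atp5g1 (0.23) and Cox6b1 (0.18) rose as well. With the marker scores in the model Ndufb2 stayed called (0.44, adjusted p = 0.023). Cox7a2 (0.24, adjusted p = 0.056), Atp5g1 (0.16, adjusted p = 0.13) and Cox6b1 (0.15, adjusted p = 0.090) did not. Without the 5 vehicle libraries Ndufb2 stood at 0.40, Cox7a2 at 0.27, Atp5g1 at 0.23 and Cox6b1 at 0.20. Depth as a covariate left 1 of the 74 called, at a median of 0.05. As given above, every lithium library was deeper than every vehicle library in females, and the depths overlapped in males. Within females the list median was 0.05 and no gene was called, and within males it was 0.16 with 13 genes higher. The striatal score was above 0.5 in 4 of 5 vehicle males and 1 of 5 vehicle females. The part of depth or of the striatal signal in these rises was not tested further. None of 13 mitochondrially encoded genes was called. Of 77 cytosolic ribosomal protein genes, many of which have processed pseudogenes that can share their reads, 4 rose, led by Rps29 (0.35 ± 0.09). That count is near the 4.68% of all genes that rose.

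Most genes of the 3 synaptic lists were not called. Over all genes 4.68% rose and 4.4% fell. Of 33 presynaptic release genes 5 fell and none rose, at a median of −0.08. Rims1, a scaffold of the active zone, had 5844, 8267 and 9507 normalized counts with lithium, against 8971, 10410.3 and 11330.2 with vehicle (−0.35 ± 0.07, limma adjusted p = 0.0067). Its paralog Rims2 had 2848, 3104 and 3448, against 3349.6, 3707 and 3919 (−0.24 ± 0.04, adjusted p = 0.0015). For Rims2, 8 vehicle libraries were above all lithium libraries. Vamp1 (−0.28), a vesicle SNARE, and Cplx3 (−0.51), a complexin, also fell. In WT cortex Rims1 and Rims2 fell too, by 0.41 and 0.18. Of 32 postsynaptic density genes 2 rose and 2 fell. The scaffold gene Shank2 had 8924, 9416 and 10988, against 7178, 8208 and 9119 (0.27 ± 0.05, adjusted p = 0.0029), and the other riser was Homer1. Lrrtm4 (−0.25), a synaptic adhesion protein, and Dlgap1 (−0.13), a scaffold, fell. Among 30 glutamate receptor genes and their auxiliary subunits, Grin3a (−0.16), Grik1 (−0.22) and Grik2 (−0.19) fell and the AMPA receptor partner Cacng2 (0.13) rose. No gene of these 3 lists was called without the 5 vehicle libraries, where the presynaptic median was 0.00. The differences of 3 named genes were then smaller by over 1.5 times: Cplx3 stood at −0.15 (adjusted p = 0.73), Vamp1 at −0.17 (adjusted p = 0.46) and Rims1 at −0.23 (adjusted p = 0.29). With the marker scores in the model Rims1 (−0.33, adjusted p = 0.031), Shank2 (0.26, adjusted p = 0.025) and Lrrtm4 (−0.40, adjusted p = 0.012) kept their call. The other genes named from these lists did not.

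Of 47 potassium channel genes 2 rose and 3 fell, beside the 4.68% of all genes that rose and the 4.4% that fell. Kcnn2, a calcium-activated potassium channel, had 1125, 1189 and 1353 normalized counts with lithium, against 839, 1015 and 1087 with vehicle, and the groups did not overlap (0.29 ± 0.05, limma adjusted p = 0.0015). Kcnj12 (0.24), an inward rectifier, rose, whereas Kcnh5 (−0.28) and Kcnj11 (−0.32), the pore subunit of ATP-sensitive channels, fell. Of 29 genes of sodium and chloride transport 3 fell. Scn1a, the sodium channel of Dravet syndrome, had 3309, 3685 and 4397, against 3739.8, 4550 and 5229 (−0.27 ± 0.06, adjusted p = 0.0069). The chloride importer gene Slc12a2 (−0.17) and the leak channel gene Nalcn (−0.16) were the others. Without the 5 vehicle libraries no gene of the channel and transport lists was called. Kcnj11 then stood at −0.16 (adjusted p = 0.56) and Scn1a at −0.18, whereas Kcnn2 stood at 0.31 (adjusted p = 0.057).

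Of 19 clock genes 2 rose and 1 fell, beside the 4.68% of all genes that rose and the 4.4% that fell. Per2, a repressor of the clock, had 1322, 1920 and 2276 normalized counts with lithium, against 1063, 1375 and 1600.2 with vehicle (0.48 ± 0.08, limma adjusted p = 0.0020). Nr1d1, which encodes the GSK3 substrate REV-ERB alpha, had 2087, 2719.6 and 3160.5, against 2732, 3419.8 and 3628 (−0.35 ± 0.07, adjusted p = 0.0036). In each gene 9 libraries of the higher drug group lay above all libraries of the other. Cry1, another repressor, rose by 0.28 ± 0.08. The labels give no hour of killing. Of 22 thyroid hormone-responsive genes 3 rose and 1 fell. Dio2, the enzyme that activates thyroid hormone, had 4792, 6305 and 9189, against 3684, 4159 and 5595 (0.63 ± 0.11, adjusted p = 0.0015). Thrsp (0.36) and Aldh1a1 (0.25) rose with it and Flywch2 fell by 0.43. No clock or thyroid gene was called without the 5 vehicle libraries, where Per2 stood at 0.44, Nr1d1 at −0.30 and Dio2 at 0.56.

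**Figure D3:**
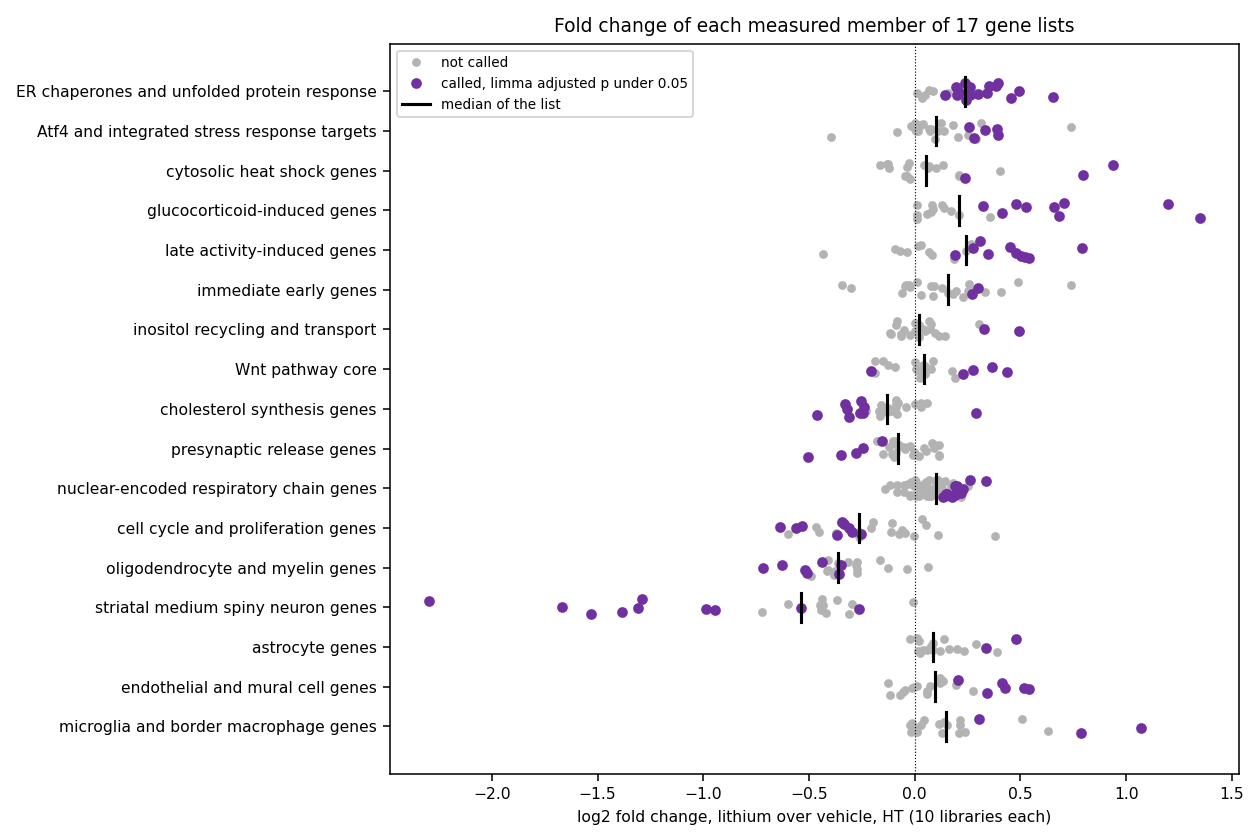
Log2 fold change, lithium over vehicle in HT cortex (x axis), of each measured member of 17 gene lists (y axis), with called genes in purple, the others in grey and the list median as a bar. The called ER chaperone genes all lie right of 0, at a list median of 0.24, and the called striatal genes all lie left of 0, at a list median of −0.54.

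Among cell type markers the largest shift was in striatal genes. Of 21, 10 fell and none rose, at a median of −0.54. Drd2, the dopamine receptor of the indirect pathway, had 23.1, 27.1 and 51.6 normalized counts with lithium, against 16.0, 107 and 399 with vehicle (−1.67 ± 0.44, limma adjusted p = 0.021). Adora2a, the adenosine receptor of the same neurons, had 39.0, 77.6 and 109, against 62.1, 193 and 712 (−1.39 ± 0.37, adjusted p = 0.023). Drd1, the receptor of the direct pathway, had 121, 168 and 212, against 146, 359.9 and 671 (−0.94 ± 0.24, adjusted p = 0.017). The vehicle libraries spanned both low and high levels of all 3 genes, and their low ends lay within or below the lithium range. Gpr6, Rgs9 and Syndig1l, also enriched in striatal neurons, fell by 1.29, 0.99 and 1.31. Summed over the list, lithium libraries held 16791 to 23172 normalized counts, against 17110 to 43753 in vehicle libraries, 5 of which were above all lithium libraries. Without those 5 the list median was −0.04, and Drd2 stood at −0.19. Those libraries were picked by a score made from these same 21 genes, so leaving them out is no test of this list. Bulk tissue does not tell apart the RNA per cell from the number of striatal neurons in a sample. Nor does it tell whether such RNA came from cortex or from the neighbouring striatum.

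Other large falls were Ccdc187, with 29.3, 46.5 and 62.3 normalized counts with lithium, against 48.6, 108 and 294 with vehicle (−1.52 ± 0.24, limma adjusted p = 0.0012), and the secreted protein gene Scube3 (−1.14 ± 0.27). The kappa opioid receptor gene Oprk1 (−0.89), Baiap3 (−0.85), Nexn (−0.84) and the lactate exporter gene Slc16a3 (−0.81) followed. None of these 6 was called without the 5 vehicle libraries, where Ccdc187 stood at −0.90 (adjusted p = 0.097), Oprk1 at −0.33 (adjusted p = 0.35), Nexn at −0.29 (adjusted p = 0.48), Scube3 at −0.96, Baiap3 at −0.76 and Slc16a3 at −0.62. With the marker scores in the model none was called either, and Scube3 stood at −0.41 (adjusted p = 0.25).

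Of 23 genes of mature oligodendrocytes, which make myelin, 7 fell and none rose, at a median of −0.36. Ugt8a, which makes the myelin lipid galactocerebroside, had 1257, 1487 and 1966 normalized counts with lithium, against 1709, 2191 and 2680.3 with vehicle. Of the vehicle libraries 7 were above all lithium libraries (−0.52 ± 0.09, limma adjusted p = 0.0025). Gjb1, a gap junction protein of myelin, had 62.9, 94.9 and 143, against 83.5, 170.03 and 216 (−0.72 ± 0.16, adjusted p = 0.0093). Opalin (−0.63) and the receptor gene Gpr37 (−0.35) fell as well. In sum the list held 102746 to 206790 with lithium, against 116846 to 218326 with vehicle, so the groups overlapped. Without the 5 vehicle libraries its median was −0.19 with no call, and Ugt8a stood at −0.36 (adjusted p = 0.17). Of 14 precursor genes 2 fell, Enpp6 (−0.50) and Bcas1 (−0.37), both of which mark cells about to form myelin. Of 28 cell cycle genes 9 fell and none rose, at a median of −0.26. Cenpe, a kinetochore motor, had 22.2, 40.6 and 51.6, against 38.7, 64.6 and 84.5 (−0.64 ± 0.15, adjusted p = 0.010), and Ccne2, Mcm2 and Hmgb2 fell by 0.37, 0.34 and 0.30. That median was −0.12 without the 5 vehicle libraries, with no call.

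Some vascular, macrophage and astrocyte genes rose. Of 20 microglia and border macrophage genes 3 rose. Lyve1, a marker of macrophages around vessels, had 61.2, 74.9 and 91.5 normalized counts with lithium, against 17.6, 32.1 and 69.8 with vehicle (1.07 ± 0.21, limma adjusted p = 0.0037). The scavenger receptor gene Cd163, expressed by the same cells, had 80.0, 100.2 and 146, against 29.8, 63.8 and 101 (0.78 ± 0.17, adjusted p = 0.0066). Of the lithium libraries 8 were above the vehicle range for Lyve1 and 5 for Cd163. The microglial gene Tmem119 rose by 0.30. Of 22 endothelial and mural genes 6 rose, led by Slc2a1, the glucose transporter of the blood-brain barrier, with 3226, 4328 and 5570.04, against 2422, 3037 and 4061 (0.54 ± 0.09, adjusted p = 0.0013). Ly6a and Ly6c1, paralogs similar in sequence, rose by 0.52 and 0.43. In astrocytes the gap junction gene Gjb6 had 1419, 1668 and 2106, against 952, 1199 and 1568 (0.48 ± 0.08, adjusted p = 0.0012), and Fgfr3 rose by 0.34, which made 2 of 20 astrocyte genes. No gene of these 3 lists was called without the 5 vehicle libraries, where Lyve1 stood at 0.48 (adjusted p = 0.18). The part that the striatal signal has in the other results was not tested beyond the values given here.

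In 53 genes, 0.308% of those tested, the 10 lithium and 10 vehicle libraries did not overlap. They include Plekhg4, Fkbp5, Fzd1 and Kcnn2, described above. A further 3, chosen after their values were seen, are the G protein subunit gene Gnb4, the atypical kinase gene Mapk4 and the protease inhibitor gene Serpinb8. Gnb4 had 1127, 1264 and 1376 normalized counts with lithium, against 1399.8, 1769 and 1906 with vehicle (−0.43 ± 0.06, limma adjusted p = 0.00055). Mapk4 had 2266, 2459.5 and 2610.4, against 1644, 1991 and 2210.00 (0.33 ± 0.05, adjusted p = 0.00071). Serpinb8 had 490.5, 557 and 617, against 309.6, 394 and 472 (0.49 ± 0.06, adjusted p = 0.00055). Of 118 called genes named by the rule for naming, 6 kept their call both without the 5 vehicle libraries and with the marker scores in the model: Plekhg4, Fkbp5, Vgf, Bc1, Pglyrp1 and Ndufb2. Of these 6, Bc1 (0.68, adjusted p = 0.16) and Ndufb2 (0.25, adjusted p = 0.077) lost their call with depth as a covariate, and Plekhg4, Fkbp5, Vgf and Pglyrp1 kept it. Bc1 was called in females, in which every lithium library was deeper than every vehicle library, and not in males, and stood at 0.06 ± 0.21 in WT cortex. None of the 118 reversed its sign without the 5 libraries.

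**Figure D4:**
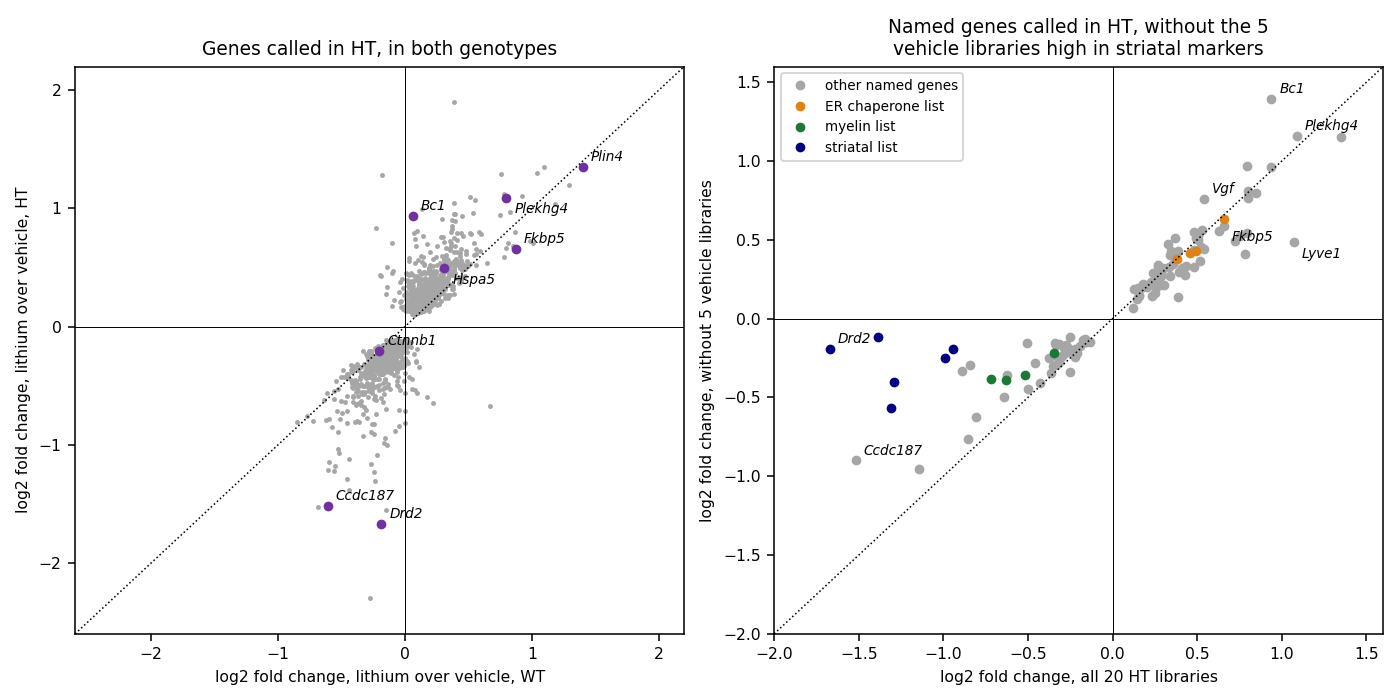
Left, log2 fold change of each gene called in HT cortex, in HT (y axis) against WT (x axis). Right, log2 fold change of the named called genes over all 20 HT libraries (x axis) and without the 5 vehicle libraries high in striatal markers (y axis). Dotted lines mark equal values, and Drd2 stands at −1.67 with all libraries and −0.19 without the 5, and Plekhg4 at 1.09 and 1.16. Drd2 is a member of the striatal list whose score picked the 5 libraries.

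Within HT males 1449 genes were called (8.41%), 712 higher (4.13%) and 737 lower (4.28%), and within HT females 2 (0.0116%), both higher, with 2100 at an unadjusted p under 0.05. The female count was 1 by edgeR and 224 by DESeq2. The direct test of the difference between the sexes called none of the 17231 genes by limma, with 1734 at an unadjusted p under 0.05. By edgeR it called 0 and by DESeq2 28. Of the genes called in males 1178 (81.3%) had the same sign in females. Over the genes called in both sexes together, the median absolute fold change was 0.32 in males and 0.23 in females.

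The genes called in females were Bc1 and Gm9762, the second named outside the rule. Bc1 rose by 1.71 ± 0.21 in females (limma adjusted p = 0.00091) and stood at 0.17 ± 0.21 in males. The difference, male minus female, was −1.54 ± 0.29 and did not pass adjustment over all genes (adjusted p = 0.19). The ER list had a median of 0.24 in each sex, with 12 of 22 called in males. The glucocorticoid list had 11 of 21 called in males at a median of 0.51, and a median of 0.01 in females. Striatal genes had medians of −0.93 in males, where 16 of 21 fell, and −0.18 in females. Oligodendrocyte genes had a median of −0.41 in females, with no call. The vehicle libraries high in striatal genes were 4 of 5 males and 1 of 5 females, so in males the striatal signal and the drug groups can hardly be told apart: a single vehicle male had a low score.

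The lithium response of WT cortex was tested in a fit over 40 libraries of both genotypes. It called 748 genes (4.34%), 399 higher (2.32%) and 349 lower (2.03%), from group means that share no library with the HT comparison, although the spread was estimated over all 40. Called in both genotypes were 394 genes, all in the same direction, which is 25.2% of the HT calls and 52.7% of the WT calls. Of the 1566 HT calls 1515 (96.7%) had the same sign in WT, against 71.6% of all genes. The fold change was smaller in WT for 1437 of them (91.8%), with a median ratio of WT to HT of 0.58, but these genes were chosen by their HT values. The test of the difference itself called 0 genes by limma, edgeR and DESeq2, with 910 at an unadjusted limma p under 0.05. Its smallest adjusted p was 0.86, for Zfp366, a nuclear receptor corepressor (HT minus WT 0.42 ± 0.09).

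Side by side, Plekhg4 rose by 1.09 ± 0.14 in HT and 0.80 ± 0.13 in WT, Fkbp5 by 0.66 ± 0.09 and 0.87 ± 0.10, Plin4 by 1.35 ± 0.22 and 1.40 ± 0.23, Bdnf by 0.50 ± 0.09 and 0.43 ± 0.08, and Hspa5 by 0.49 ± 0.09 and 0.31 ± 0.09. Ctnnb1 fell by 0.21 in HT and by 0.20 in WT. Insig1 fell by 0.32 and 0.29. Glucocorticoid-induced genes rose in 9 of 21 cases in HT and in 10 of 21 in WT, at medians of 0.21 and 0.28, and none fell in either. ER genes rose in 16 of 22 cases in HT and 7 of 22 in WT, at medians of 0.24 and 0.14. The striatal list, which had 10 falls in HT, had none in WT, at medians of −0.54 and −0.12. Oligodendrocyte genes had 7 falls in HT and none in WT, at medians of −0.36 and −0.28. These counts come from separate tests, and no gene of these lists was called for a difference between genotypes.

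Against fluoxetine in HT cortex, lithium libraries differed in 3976 genes (23.1%), 2030 higher (11.8%) and 1946 lower (11.3%). Genes of protein synthesis and of the respiratory chain were often among them: 60 of 77 ribosomal protein genes were higher with lithium and none lower, at a median of 0.26, and 54 of 74 respiratory chain genes were higher and none lower, at a median of 0.28. The 5 called genes with the smallest p were Atp5e, a subunit of ATP synthase (0.53 ± 0.05), Rpl39 (0.60 ± 0.06) and Rpl37a (0.49 ± 0.05) of the large ribosomal subunit, Cox7a2 (0.48 ± 0.05) and the inward rectifier gene Kcnj4 (0.38 ± 0.04). The lithium and fluoxetine libraries also differed in how their values depended on transcript length. The length slope of a library, fitted over genes on its log2 deviations from the mean of all libraries, was −0.0568 to 0.0491 with lithium and 0.0143 to 0.0790 with fluoxetine. With length and GC slopes as covariates 1397 genes were called, among which 20 ribosomal and 27 respiratory chain genes were higher and none lower, at medians of 0.14 each.

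Other groups differed from fluoxetine as well. Plekhg4 was higher with lithium than with fluoxetine by 0.77 ± 0.11 (limma adjusted p = 6.4e-05), Sdf2l1 by 0.59 ± 0.12 (adjusted p = 0.0013) and Vgf by 0.43 ± 0.09 (adjusted p = 0.0012). For Fkbp5 the difference was 0.22 ± 0.13 and was not called (adjusted p = 0.25), and for Homer1 it was −0.00 ± 0.11 (adjusted p = 0.99). Of 27 immediate early genes 10 were higher with lithium, of 28 Atf4 targets 10 were higher, and of 23 oligodendrocyte genes 10 were lower. With length and GC slopes as covariates, 2 immediate early genes and 3 Atf4 targets were higher, 1 Atf4 target was lower, and 10 oligodendrocyte genes were lower. With depth as a covariate the counts were 5, 9 and 7. With the marker scores in the model they were 7, 8 and 4, and the oligodendrocyte median was −0.16, against −0.29 without covariates. Depth was 26.6 to 35.2 M reads with lithium and 32.8 to 36.6 M with fluoxetine.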

How the data were processed

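Libraries of prefrontal cortex RNA were made with a TruSeq kit for stranded mRNA, as the labels' protocols state. As deposited by the authors, the values are signal for 18088 genes in 60 libraries: reads per gene over a library-wide size factor (0.911 to 1.197 in the 20 HT libraries used). The submitters' processing notes name the build GRCm38 and the tools DESeq2 1.19.11, Salmon 0.11.2 and R 3.6.0. The strand setting of the counting is not given in the sources used here, so reads of overlapping and antisense genes may be mixed. The GRCm38 annotation held 18077 of the IDs.

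Values were put on a log2(normalized count + 1) scale and tested by limma-trend (limma 3.58.1, R 4.3.3) with sex as a block, two-sided, with Benjamini-Hochberg adjustment. A gene needed 10 normalized counts or more in 5 or more of the 20 libraries, which kept 17231 and removed 857. The sexes were compared with 1 mean for each of 4 groups, the genotypes with 8 groups in 40 libraries, and lithium and fluoxetine with sex as a block. The design named edgeR as the main test for raw counts and limma for values normalized by the authors, which the table holds. All values were whole reads within a tolerance of 0.01 once multiplied by their size factor, and edgeR 4.0.16 and DESeq2 1.42.0 were run on those reads as alternatives. Depth limits the precision of low genes, and its range stands beside the results. The steps were tested on simulated data.

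The genes and the 38 lists were chosen with earlier results of these data known. The text names Trip12, the 7 direct targets, the 12 largest rises and 12 largest falls among called genes that average 50 normalized counts or more, up to 4 called members of each list with the smallest p, and the leading genes of the other comparisons. A few genes that the rule picks are not reported here. Genes named beyond that rule are identified as such or are members of these lists. Other settings were TMM and quantile scaling, other filters and pseudocounts, array weights, all 60 libraries in 1 fit, a replicate block, covariates for depth, length and GC slopes and marker scores, and leaving out each library in turn. Promoter sequences are from RefSeq (GRCm38.p6). No genome sequence or protein table was used here.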

Additional observations from a re-analysis of the deposited data

Results flagged for a closer look

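Within groups of 5 libraries, 264 sets of values (each gene printed with its values, and each library measure, in each group) were examined for a library standing apart by Dixon's criterion. It was met 18 times, and chance alone flags about 1 in 20 groups. HT vehicle male 1 was apart in its GC slope (−2.61, against 0.160 to 0.777 in the other 4 vehicle males), its length slope (0.0441, against 0.000879 to 0.0118), Hspa1b (121 normalized counts, against 281 to 332) and Inhba (470.5, against 286 to 314.0). HT vehicle male 4 was high in Impa2 (233, against 162 to 178) and Bc1 (979, against 379.9 to 537). HT vehicle female 1, the female with a high striatal score, was high in Adora2a (292, against 67.8 to 94.6) and Gpr6 (128, against 35.2 to 58.5). HT lithium male 2 had the highest striatal score of the lithium libraries (0.0477, against −0.330 to −0.283 in the other lithium males) and the most Ptgs2 of its group (534, against 396 to 435).

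The remaining flags concern single genes. Ptgs2 was low in HT lithium female 5 (329, against 457 to 487) and in HT vehicle female 3 (246, against 312 to 329). Cck was low in HT lithium female 4 (7025, against 8791 to 9454). Gsk3a was low in HT lithium male 1 (4927, against 5946 to 6284), Rims2 was high in HT lithium male 4 (3248, against 2848 to 2963) and Kcnn2 was high in HT lithium male 5 (1353, against 1125 to 1153). Manf was low in HT vehicle female 2 (865, against 999.97 to 1032), and Dio2 was high in HT vehicle female 5 (5595, against 4040.5 to 4401).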

How the results depend on the processing

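The 1566 genes called for lithium against vehicle in HT stayed between 1385 and 2172 under TMM, quantile scaling, other filters and pseudocounts, edgeR, DESeq2, array weights and the replicate block (1385). They were 2609 with all 60 libraries in 1 fit, 2606 with length and GC slopes, 504 with depth, 160 with the marker scores and 13 without the 5 vehicle libraries high in striatal genes, an alternative added after seeing the data. Leaving out each library in turn gave 1082 to 2008. For females (2 calls) the counts were 224 by DESeq2, 1 by edgeR, 225 with all 60 libraries, 12 with array weights, 0 with depth, 90 with slopes and 17 with marker scores, and 2 to 85 with a library left out (85 without HT lithium female 5, 16 without HT vehicle male 1). For males (1449) they were 2354 with all 60 libraries, 2204 with array weights, 2238 with slopes, 1246 against the 1 vehicle male left without the others, whose spread is then assumed to be that of the other groups, and 801 to 1556 with a library left out (801 and 873 without HT lithium males 3 and 2, 804 and 901 without HT vehicle males 4 and 2). The sex difference (0) gave 28 genes by DESeq2, 3 with array weights, 9 with slopes, 130 with marker scores, 438 without the vehicle libraries high in striatal genes and 0 to 2 with a library left out. The genotype difference gave 0 under every setting run. Lithium against fluoxetine (3976) gave 1397 with slopes and 3370 to 4033 with a library left out. The WT comparison (748) gave 1409 with array weights, 304 with depth, 1205 with marker scores and 480 to 896 with a library left out (480 without WT lithium male 4). Signs turned for Adora2a (0.15) and Syndig1l (0.11) with marker scores. In males they turned for Adora2a (0.17 with marker scores, 0.31 without the high vehicle males) and for Gpr6 (0.14 without them). These genes are members of the list that makes the striatal score and picks those libraries, so the turns are no separate result. Of 118 named called genes 56 stayed called with depth, 25 with marker scores, 118 with slopes, 108 with the replicate block and 84 in every fit with a library left out. Same-numbered libraries did not vary together as a rule (11 of 30 correlations over 0.1), so the numbers were not taken as pairs. An exception was number 2, whose correlations between groups were all positive, at 0.07 to 0.23. With the replicate number as a block no count changed by over 1.5 times. Depth limits the low genes most.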

Other observations

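Some other gene groups moved in few members in HT cortex. Of 25 genes of excitatory cortical layers 2 fell and none rose, beside the 4.4% of all genes that fell, and both mark layer 6. Foxp2, a transcription factor also made in striatal neurons, had 178, 210.3 and 379 normalized counts with lithium (lowest, median and highest), against 212, 362 and 581 with vehicle, and the groups overlapped (−0.62 ± 0.16, limma adjusted p = 0.016). The neurotensin receptor gene Ntsr1 fell by 0.33 ± 0.10. Neither was called without the 5 vehicle libraries high in striatal genes, where Foxp2 stood at −0.36 (adjusted p = 0.41) and Ntsr1 at −0.17 (adjusted p = 0.62), or with the marker scores in the model, where Foxp2 stood at −0.06 (adjusted p = 0.75). Of 21 interneuron genes 2 rose and 1 fell. Cck, the cholecystokinin precursor, which pyramidal cells also make, had 5741, 8567 and 9532, against 4236, 6498 and 7177, and 8 lithium libraries lay above the vehicle range (0.37 ± 0.09, adjusted p = 0.012). Vip, the peptide of another interneuron class, rose by 0.23 ± 0.06, and the neuregulin receptor gene Erbb4 fell by 0.22. Without those libraries no interneuron gene was called, and Vip stood at 0.14.

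Of 29 interferon-induced and antigen presentation genes 2 rose, Irf7 (0.50 ± 0.14) and the class I light chain gene B2m (0.25 ± 0.08), at a list median of 0.13. Over all genes 4.68% rose and 4.4% fell, beside which the counts of this paragraph are to be read. Of 32 autophagy and lysosome genes, a process that lithium is known to induce in cultured cells through inositol depletion, 1 rose and 2 fell. The falls were those of Wipi1 (−0.16 ± 0.05) and the acid glucosidase gene Gaa (−0.25 ± 0.07). No gene of the proteasome (31 tested), the olfactory bulb (16), the choroid plexus (9) or blood cells (7) was called. Of 18 meningeal fibroblast genes 1 rose, the prostaglandin D synthase gene Ptgds (0.38 ± 0.10). Without the 5 vehicle libraries none of these named genes was called, and Irf7 stood at 0.50, B2m at 0.20, Wipi1 at −0.13, Gaa at −0.12 and Ptgds at 0.14. The olfactory score spread widely in both groups, at −1.84 to 2.12 with lithium and −1.10 to 1.59 with vehicle.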
